A study of Homo sapiens with 4 samples.

Results

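The metallothionein-high cells described here are the MSTO-211H cells with the largest share of their RNA molecules from the metallothionein genes MT1X, MT2A, MT1E and MT1F. In each single-cell library, cells with under 20% mitochondrial UMIs (unique molecular identifiers, one per counted RNA molecule) were ranked by the summed UMIs of these 4 genes over all UMIs, and the top 10% were taken. Control gave 318 of its 3183 cells, Radiation 242 of 2425, Drug 380 of 3802 and Drug_Radiation 699 of 6990, or 1639 of 16400 cells in all. They were selected on measured RNA, so they are a range of a score and not a separate cell type, and the 4 genes give no finding about them.

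MSTO-211H is a human mesothelioma cell line, labelled as wild type, kept here in suspension in serum-free medium with EGF, bFGF, heparin and a neuronal supplement, and called mesothelioma-initiating cells by the submitters. Control received vehicle, Radiation 4 Gy, Drug 10 µM QTP, and Drug_Radiation both agents, with collection 48 h after irradiation. QTP is not spelled out in the labels, and the title of the series speaks of inhibited dopamine receptors. There was 1 library for each group, from 1 cell line, so no difference between treatments had a replicate. Every comparison below is of the top 10% with the other cells of the same library. The spread is the SD over the 4 libraries (n = 4 libraries of different treatment), and values are given in the order Control, Radiation, Drug, Drug_Radiation.

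Metallothioneins are small, cysteine-rich proteins that bind zinc and copper and can take up cadmium and reactive oxygen. Their genes lie together on chromosome 16 and are switched on by the zinc-sensing factor MTF1 at metal response elements, and also by glucocorticoids, oxidative stress and low oxygen. In tumours their level differs between and within cell populations.

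The start regions of the ranking genes show the metal response elements by which the family is usually recognised. RefSeq promoter windows (GRCh38.p14, 250 bases before to 50 after the start) were at hand for MT2A at chr16:56608334-56608633 and MT1X at chr16:56682220-56682519, both on the plus strand. Capitals mark the metal response core, searched as TGCACNC or TGCGCNC on both strands.
MT2A: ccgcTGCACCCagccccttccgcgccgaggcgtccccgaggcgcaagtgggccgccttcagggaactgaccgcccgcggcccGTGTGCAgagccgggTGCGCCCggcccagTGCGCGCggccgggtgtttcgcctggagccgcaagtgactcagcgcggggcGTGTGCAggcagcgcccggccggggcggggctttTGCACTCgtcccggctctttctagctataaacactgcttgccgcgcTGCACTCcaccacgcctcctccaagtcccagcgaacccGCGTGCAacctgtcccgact
MT1X: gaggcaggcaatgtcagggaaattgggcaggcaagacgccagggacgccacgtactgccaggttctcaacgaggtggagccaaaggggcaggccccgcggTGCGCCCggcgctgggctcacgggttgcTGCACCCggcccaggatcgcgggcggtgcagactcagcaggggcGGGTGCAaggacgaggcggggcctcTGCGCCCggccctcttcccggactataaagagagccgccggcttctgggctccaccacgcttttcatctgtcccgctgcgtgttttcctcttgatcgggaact
The MT2A window held 8 matches and the MT1X window 4. Of 27305 promoter windows in RefSeq, 29.4% held at least 1 match and 0.593% held 4 or more.

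The ranking was in practice by MT2A and MT1X. MT2A, the most widely expressed metallothionein, stood at 8036, 9823, 6269 and 7840 CPM in the top 10% and at 1320, 2043, 1412 and 1972 CPM in the other cells (CPM, the UMIs of a gene per 1000000 nuclear-encoded UMIs outside the 4 genes). MT1X was at 980, 1410, 1043 and 1183 CPM against 58.2, 109, 107 and 141 CPM. MT1E did not pass 2.21 CPM in any group of cells, and MT1F had a single UMI in the 16400 cells. The lowest score in the top 10% was 0.501%, 0.688%, 0.451% and 0.567% of UMIs, next to 0.499%, 0.682%, 0.451% and 0.567% in the highest cell outside. Within 10% of the limit lay 51, 48, 70 and 111 cells above it and 51, 44, 68 and 142 below it, so its place is arbitrary for these cells.

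**Figure D1:**
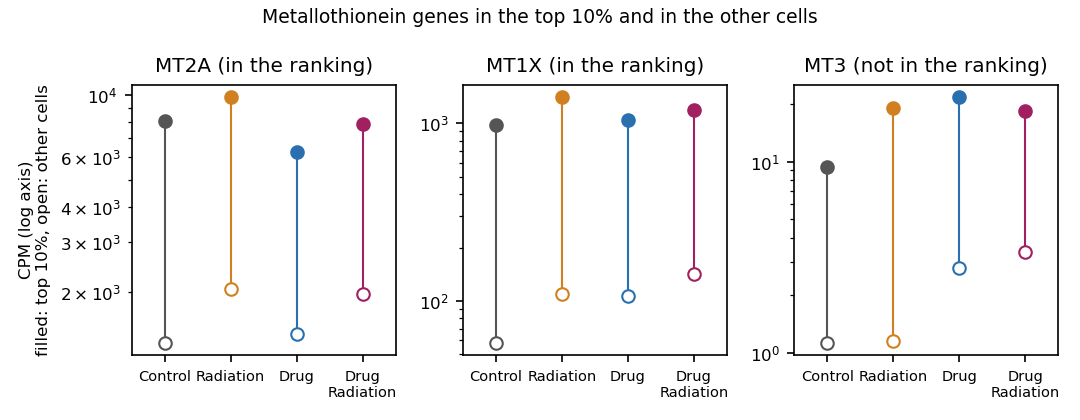
Level of MT2A, MT1X and MT3 in CPM on log axes in each library, with filled points for the top 10% of cells and open points for the other cells. MT2A and MT1X chose the cells; MT3, which was not in the ranking, was at 9.37 to 21.8 CPM in the top 10% and at 1.13 to 3.36 CPM in the others.

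Cells ranked on a random part of their UMIs, 1 in 2, were described on the UMIs left over, which the ranking had not used. There MT2A had log2 ratios of 2.37, 2.16, 2.12 and 1.96 and MT1X of 3.95, 3.60, 3.23 and 3.03. High ratios were likely, as the same genes in the same cells were ranked, and they give no finding about the cells. Of the cells so chosen, 82.4%, 87.2%, 92.4% and 92.3% were also in the top 10% of the full ranking. That ranking includes the same UMIs, so much of this share is built in. The share was lowest in Control, where a metallothionein-high cell had a median of 18.5 UMIs of the 4 genes, against 51, 150 and 159 in the other libraries.

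Depth hardly differed between the metallothionein-high cells and the rest. Their median was 2300, 5088.5, 20652 and 18751 UMIs, against 2320, 5342, 20382 and 17908 in the other cells. The mitochondrial share had medians of 3.16%, 3.44%, 3.68% and 4.82% against 3.18%, 3.54%, 4.04% and 5.22%, lower in the metallothionein-high cells of every library. The libraries with QTP were several times deeper per cell than the others, so QTP, depth and library cannot be told apart. No barcode occurred in more than 1 library (0 shared).

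Of the metallothioneins outside the ranking only MT3 passed 5 CPM in the metallothionein-high cells of every library. MT3, a metallothionein first known from brain, was at 9.37, 19.1, 21.8 and 18.3 CPM in the metallothionein-high cells and at 1.13, 1.16, 2.77 and 3.36 CPM in the others, higher in all 4 libraries. MT1G was at 6.03 CPM against 0.284 CPM in Drug and at 1.43 against 0.340 CPM in Drug_Radiation, and without QTP it had 1 UMI in the metallothionein-high cells and 1 in the others of Control, and 0 against 5 in Radiation. Its 57 UMIs in the metallothionein-high cells of Drug came from 23 cells, 22.8% of them from 1 cell. MT1M, MT1A, MT1B and MT1H did not pass 1.04 CPM anywhere. Genes of this family are similar in sequence, and whether reads placed on MT3 or MT1G came from MT2A or MT1X was not tested.

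Beyond the ranking genes, 64 genes were at least 1.5-fold higher and 28 at least 1.5-fold lower in the metallothionein-high cells of all 4 libraries, of 4308 genes with at least 20 CPM (1.49% and 0.65%). The ratios use CPM + 1 and carry no test, since the same contrast chose the cells. Of the genes of each single library, Control had 8.83% higher and 4.5% lower, Radiation 7.78% and 3.99%, Drug 2.87% and 2.01%, and Drug_Radiation 2.03% and 0.995%. The larger shares came with the shallower libraries and fewer cells. Of the 64 higher genes, 60 were protein-coding, but the protein-coding share of the 4308 genes is not given here. The 64 genes held matrix, secreted, hypoxia and stress genes. The 28 lower genes held the keratins of simple epithelium, the caveola genes CAV1, CAV2 and CAVIN2, and the annexins ANXA1 and ANXA3. Across the 4308 genes, ratios of library pairs correlated with Pearson r between 0.64 and 0.91, a description over genes that are not independent.

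LOX, which encodes lysyl oxidase, the secreted enzyme that cross-links collagen and elastin, had the largest ratio of the higher genes when each was taken at its smallest over the 4 libraries. It was at 393, 425, 337 and 322 CPM in the metallothionein-high cells and at 81.0, 77.4, 109 and 111 CPM in the others. The lowest of the first set was well above the highest of the second, and the mean log2 ratio was 1.96 ± 0.46 (SD, n = 4 libraries). As LOX was named for its ratios, such a gap was likely, and the share of all genes with one is not given here. LOX UMIs came from 131 of 318, 138 of 242, 304 of 380 and 602 of 699 metallothionein-high cells, and no single cell gave more than 7.41% of them. The gene lies at chr5:122063195-122078360 on the minus strand (GENCODE 29, GRCh38). Its RefSeq window, chr5:122078210-122078509 on the minus strand, is shown because LOX is also a known hypoxia gene, with the hypoxia response core, searched as ACGTG or GCGTG on both strands, in capitals.
LOX: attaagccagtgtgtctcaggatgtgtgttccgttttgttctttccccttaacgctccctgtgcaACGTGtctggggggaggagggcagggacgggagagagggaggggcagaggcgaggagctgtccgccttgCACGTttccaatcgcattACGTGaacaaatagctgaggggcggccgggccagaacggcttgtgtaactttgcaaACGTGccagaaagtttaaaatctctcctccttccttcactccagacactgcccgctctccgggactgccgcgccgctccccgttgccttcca
The LOX window held 4 matches, a number reached by 4.45% of all windows and by 8.44% of those of genes with at least 20 CPM. The shares over genes were close: of the 44 higher genes with a window, 68.2% held a hypoxia core and 38.6% a metal response core, against 67.1% and 40.0% of the 3541 genes with at least 20 CPM and a window.

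Genes of the extracellular matrix were the list with the largest shift. Of its 20 measured genes (at least 5 CPM in every library), 17 exceeded the all-gene median in all 4 libraries and 2 stayed below it, against 21.7% and 22.6% of all 9402 genes measured in that way. Every list count of this kind below is to be read against the same all-gene shares. The median ratio of the list was 0.55 ± 0.10 log2 above that of all genes (SD, n = 4 libraries). MMP2, the gelatinase that cuts basement membrane collagen, was at 52.0, 67.7, 84.9 and 112 CPM against 15.1, 18.8, 27.9 and 41.8 CPM. All 4 metallothionein-high values were above all 4 values of the other cells. MMP2 too was named for its ratios, and the share of all genes so separated is not given here. PLOD2, which hydroxylates collagen lysines, had a mean log2 ratio of 1.10 and the fibrillar collagen gene COL5A1 one of 0.91. SPARC, a collagen-binding matrix protein, went the other way, with 288, 348, 413 and 394 CPM against 301, 412, 506 and 465 CPM.

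Further secreted and surface proteins stood among the leading genes. SERPINE2, a secreted serine protease inhibitor, was at 30.2 to 33.9 CPM against 4.77 to 11.6 CPM. In Control 1 cell gave 27.6% of its 29 UMIs, and without that cell the value there was 22.2 CPM. THBS2, a matricellular thrombospondin, had a mean log2 ratio of 1.36 ± 0.24 (SD, n = 4 libraries), and TGFBI, a matrix protein induced by TGF-β, one of 1.14 ± 0.07. IGFBP3, which binds insulin-like growth factors, had 1.18 ± 0.19. Of the surface proteins, DNER, a Notch ligand, had 1.98 ± 0.60, the adhesion molecule CADM1 had 1.42 ± 0.27 and the integrin subunit ITGB5 had 1.55 ± 0.38. TRD-AS1 (ENSG00000251002), a noncoding RNA antisense to a T cell receptor locus, had 1.67 ± 0.39, and its reads cannot be told apart from those of overlapping genes without the strand. CCL5, a chemokine, was at 54.1, 78.7, 134 and 94.0 CPM against 22.2, 13.4, 24.4 and 28.2 CPM. Its UMIs were unevenly spread: 1 cell gave 29.9% of them in Radiation, and without that cell the value there was 55.7 CPM. In Drug 1 cell gave 17.3%, and without it the value was 111 CPM.

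**Figure D2:**
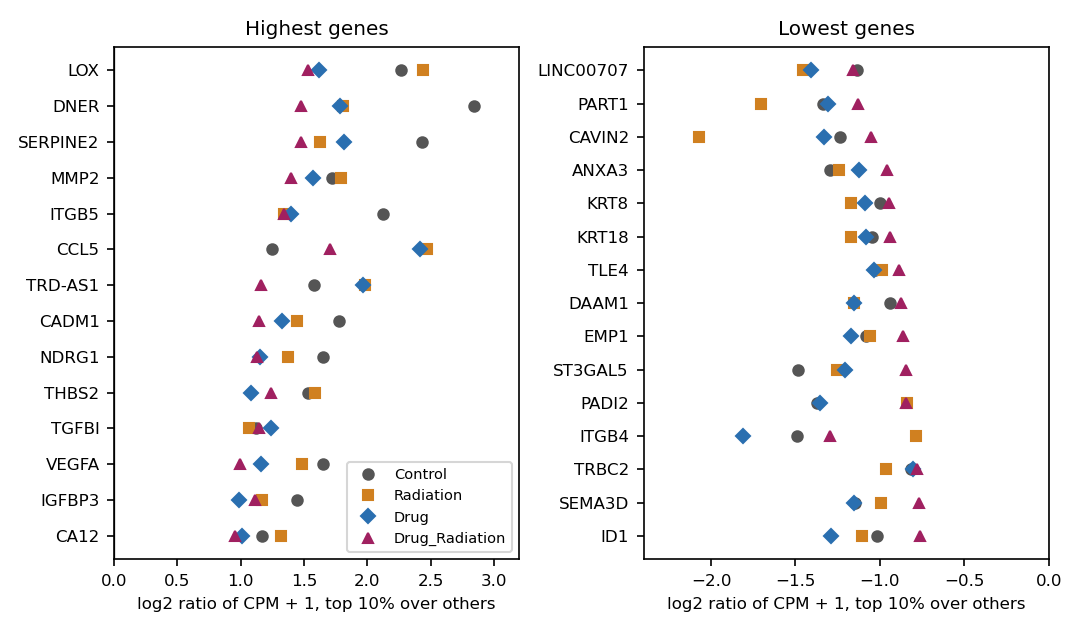
log2 ratio of CPM + 1, top 10% over other cells, for the highest and lowest genes by their smallest ratio over the libraries, with 1 symbol per library. The genes shown lie right of 0 in the left panel and left of 0 in the right panel in each library, and LOX ranges from 1.53 in Drug_Radiation to 2.44 in Radiation.

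Most genes of the hypoxia and glycolysis list had higher ratios than the typical gene. Of 39 measured genes 30 exceeded the all-gene median in all 4 libraries and 2 below, with a list median of 0.37 ± 0.10 log2 above all genes (SD, n = 4 libraries). VEGFA, the main angiogenic growth factor, was at 87.4, 95.7, 98.6 and 87.4 CPM against 27.2, 33.6, 43.6 and 43.3 CPM. NDRG1, a hypoxia-induced gene, was at 257, 707, 379 and 374 CPM against 81.2, 273, 170 and 170 CPM, and its metallothionein-high cells in Control were below the other cells of Radiation. CA12 and CA9, carbonic anhydrases of the cell surface, had mean log2 ratios of 1.11 and 0.81, ENO2, the neuronal enolase, 0.89 and the disulfide oxidase gene ERO1A 0.89. PKM, which carries out the last step of glycolysis, was lower by little and evenly, at a mean log2 ratio of -0.26 ± 0.01, and PGAM1, a glycolytic mutase, at -0.15 ± 0.08.

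Genes of the integrated stress response, by which eIF2α phosphorylation and ATF4 answer lack of amino acids or misfolded protein, were also higher. Of 24 measured genes 20 exceeded the all-gene median in all 4 libraries and 0 below, with a list median of 0.48 ± 0.10 log2 above all genes (SD, n = 4 libraries). DDIT3, which encodes the transcription factor CHOP, was at 85.4, 83.9, 145 and 111 CPM against 35.02, 47.1, 83.5 and 69.6 CPM. STC2, a secreted glycoprotein under ATF4, was at 150, 395, 370 and 359 CPM against 77.6, 194, 202 and 220 CPM. Within each library both genes were higher in the metallothionein-high cells. Across libraries the STC2 ranges overlapped and those of DDIT3 were separated by less than 1 CPM. SLC7A11, the cystine transporter, had a mean log2 ratio of -0.05 ± 0.11. Of the endoplasmic reticulum chaperone list, 10 of 22 genes lay above the median throughout and 1 below. Its largest ratios were those of HERPUD1 (0.88 ± 0.15) and XBP1 (0.79 ± 0.16), while the chaperone HSPA5 itself had 0.19 ± 0.09.

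The inflammatory list of cytokines and NF-κB targets had 8 of 15 measured genes above the median of all genes in all 4 libraries and 0 below, with a list median of 0.42 ± 0.09 log2 above all genes (SD, n = 4 libraries). ICAM1, the leukocyte adhesion receptor, was at 24.98, 28.0, 41.2 and 39.1 CPM against 7.03, 17.2, 25.7 and 24.9 CPM. IL32, an abundant cytokine gene of this line, did not share this, at 651, 703, 866 and 815 CPM against 607, 755, 850 and 793 CPM. SOD2, the mitochondrial superoxide dismutase and an NF-κB target, had a mean log2 ratio of 0.96 ± 0.29. Interferon response genes had 1 of 17 above and 7 below the median throughout, against 21.7% and 22.6% of all genes.

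Genes that handle metals did not move as a group with the metallothioneins. Of 23 measured zinc and copper genes 6 were over and 4 under the all-gene median in all 4 libraries, near the shares of all genes, and the list median was 0.07 ± 0.04 log2 above all genes (SD, n = 4 libraries). MTF1, the zinc sensor, was at 6.25, 15.5, 8.998 and 9.65 CPM against 5.65, 10.4, 11.1 and 9.36 CPM. SLC30A1, the zinc exporter that MTF1 also controls, was at 6.25, 8.09, 9.21 and 11.4 CPM against 4.39, 7.04, 8.69 and 12.8 CPM. Neither was higher in all 4 libraries, and both levels were low. SLC39A14, a zinc and iron importer, had the largest mean ratio of the zinc and copper genes with at least 20 CPM, at 49.97, 58.9, 59.8 and 47.5 CPM against 26.6, 33.6, 38.0 and 35.4 CPM. ATOX1, a copper chaperone, was lower, at -0.37 ± 0.12.

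The NRF2 and antioxidant genes likewise did not follow. Of 19 measured NRF2 targets 3 lay above and 5 below the median throughout, against 21.7% and 22.6% of all genes. NQO1, a standard NRF2 target, was lower at 406, 435, 502 and 476 CPM against 531, 665, 640 and 625 CPM. HMOX1, heme oxygenase 1, was at 22.9, 28.0, 40.7 and 27.9 CPM against 10.5, 16.6, 27.7 and 28.8 CPM, higher in 3 libraries and about equal in Drug_Radiation. Of the superoxide, peroxide and glutathione enzymes 15 of 21 lay below the median throughout and 6 above. Of the glucocorticoid targets TSC22D3 (GILZ) had a mean log2 ratio of 0.77 ± 0.27 and ERRFI1 1.09 ± 0.14, while FKBP5 had -0.37 ± 0.61 with both signs. Over that list 4 of 10 measured genes lay above the median throughout and 1 below, against the same all-gene shares.

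**Figure D3:**
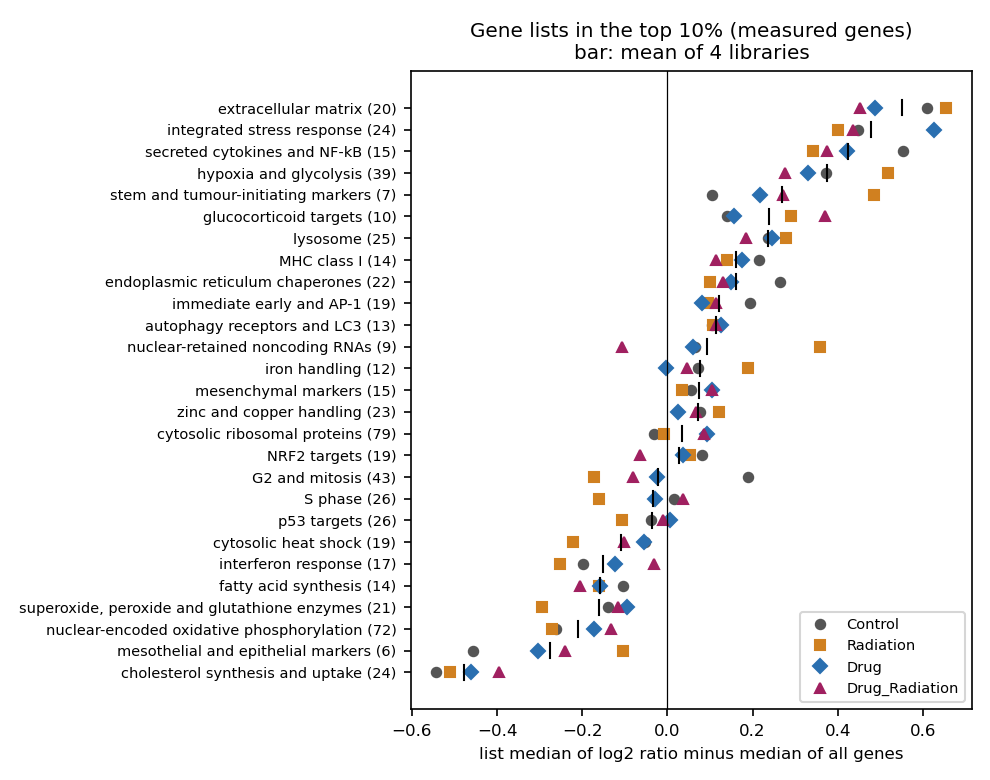
Median log2 ratio of each gene list minus that of all genes, with 1 symbol per library, the number of measured genes in brackets and a bar at the mean of the 4 libraries. The extracellular matrix list has the highest mean (0.55) and the cholesterol list the lowest (-0.48), with zinc and copper handling at 0.07.

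The keratin pair of simple epithelia and mesothelium was lower in the metallothionein-high cells. KRT8 was at 947, 1328, 1109 and 1232 CPM against 1892, 2995, 2356 and 2378 CPM, and KRT18, its filament partner, at 1430, 1299, 1431 and 1482 CPM against 2950, 2922, 3032 and 2846 CPM. For both genes all 4 metallothionein-high values were below all 4 values of the other cells, with mean log2 ratios of -1.05 ± 0.10 and -1.06 ± 0.09 (SD, n = 4 libraries). Both keratins were named for their ratios, and the share of all genes so separated is not given here. The intermediate filament gene VIM had 0.21 ± 0.05. The mesothelial markers MSLN and CALB2 had both signs over the libraries, and KRT19, PDPN and WT1 were under 2.86 CPM everywhere, so of the 9 markers taken for mesothelioma cells only KRT8, KRT18 and VIM were abundant. Of the 15 measured mesenchymal markers 4 lay above the median throughout and 1 below, against 21.7% and 22.6% of all genes.

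Several membrane-scaffold and calcium-binding genes were lower with the keratins. CAV1, the main protein of caveolae, had a mean log2 ratio of -0.82, CAV2 -0.76 and CAVIN2 -1.42. S100A6, a small calcium-binding protein, was at 8566, 7595, 4738 and 6352 CPM against 13612, 11963, 7544 and 9818 CPM. Its ratio had the same size in each library, -0.66 ± 0.02 (SD, n = 4 libraries), although its level differed between them. ANXA1, an annexin that binds S100 proteins, had -0.76. FGFBP1, a secreted carrier of fibroblast growth factors, was at 1.04, 0.736, 3.18 and 4.42 CPM against 14.6, 14.4, 32.7 and 25.4 CPM, the largest mean difference downward of the named genes, and in Control and Radiation this rests on 1 UMI each. The exact counting intervals of the log2 ratio there ran from -9.12 to -1.30 and from -9.60 to -1.79, without the added 1 CPM. The integrin subunit ITGB4, part of the hemidesmosome receptor, had -1.35 ± 0.43, and ID1, an inhibitor of helix-loop-helix factors, -1.04 ± 0.22.

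Cholesterol synthesis and uptake was the list with the lowest median, -0.48 ± 0.06 log2 relative to all genes (SD, n = 4 libraries). Of 24 measured genes 21 stayed under the all-gene median in all 4 libraries and 0 above, though 0 passed 1.5-fold lower in all 4. ACAT2, which makes acetoacetyl-CoA, was at 31.2, 28.7, 70.1 and 48.7 CPM against 51.2, 42.0, 123 and 79.6 CPM. It was higher in the libraries with QTP than without, in metallothionein-high and other cells, and within each library lower in the metallothionein-high cells. Nuclear-encoded oxidative phosphorylation showed a smaller, even shift: 62 of 72 genes lay below the median throughout and 1 above, at a list median of -0.21 ± 0.07, beside the lower mitochondrial share given above.

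The division and p53 lists had medians close to that of all genes. Relative to all genes they were at -0.03 ± 0.09 (S phase), -0.02 ± 0.15 (G2 and mitosis) and -0.04 ± 0.05 log2 (p53; SD, n = 4 libraries). The S phase list had 2 of 26 genes above and 5 below the median throughout, and the G2 and mitosis list 7 of 43 above and 4 below. The p53 list had 5 of 26 above and 8 below. For all genes the shares were 21.7% above and 22.6% below. CDKN1A, the p53 target that encodes p21, was at 187, 325, 368 and 423 CPM against 171, 401, 359 and 485 CPM, and GDF15 at 127, 234, 290 and 362 CPM against 128, 271, 266 and 393 CPM. NGB, neuroglobin, differed widely between libraries but not within them: it was at 2907, 1478, 167 and 133 CPM in the metallothionein-high cells and at 2956, 1404, 179 and 135 CPM in the others. Among the markers used for tumour-initiating cells, CD44 was higher (0.48 ± 0.12) and ALDH1A3 lower (-0.64 ± 0.31), and 3 of the 7 measured genes lay above the median throughout and 1 below.

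Differences were also seen between cells outside the top 10%. Cells were put into 10 equal groups by score, group 10 being the metallothionein-high cells. From group 1 to group 10, LOX went from 31.9 to 393 CPM in Control, and likewise from 32.5 to 425, from 48.7 to 337 and from 52.6 to 322 CPM. Group 9, just outside the metallothionein-high cells, was at 189, 184, 215 and 180 CPM. KRT8 went from 1991 to 947, from 4190 to 1328, from 3175 to 1109 and from 3294 to 1232 CPM, and stood at 1155, 1767, 1501 and 1565 CPM in group 9. For both genes group 9 lay between groups 1 and 10 in each library. The path was not even: in Control KRT8 was at 2398 CPM in group 3, above its value in group 1, and LOX was at 89.1 CPM in group 6 and 76.3 CPM in group 7. In Control 20.5% of the other cells had no UMI of the 4 genes, so its lowest groups are ordered by file position only.

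**Figure D4:**
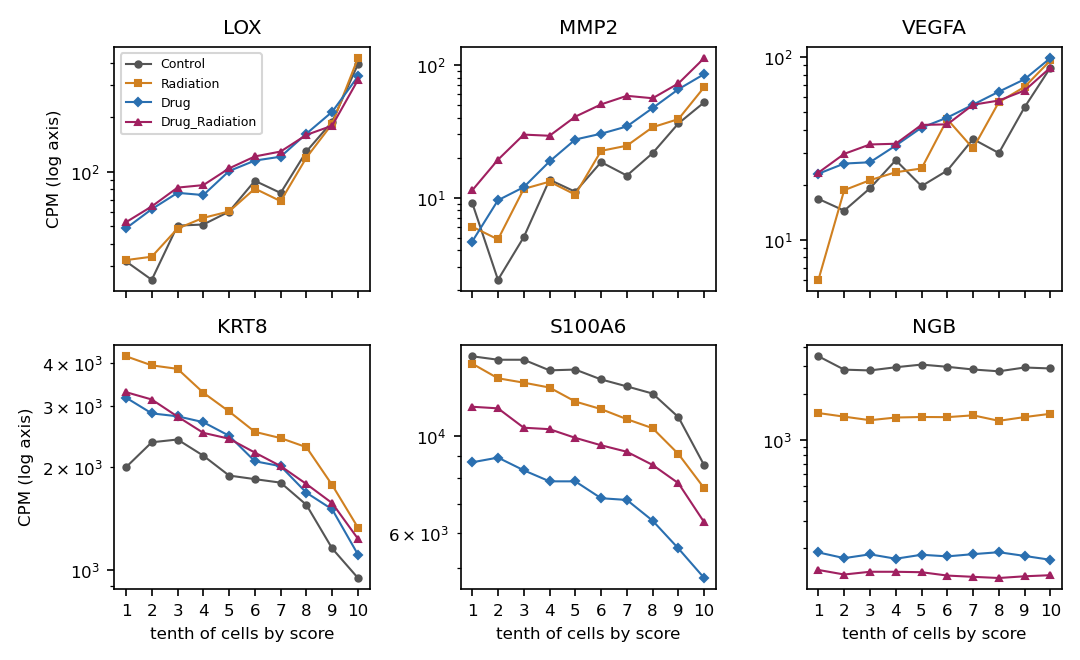
CPM (log axes) of 6 genes over 10 equal groups of cells by score in each library, group 10 being the metallothionein-high cells. LOX, MMP2 and VEGFA are highest and KRT8 and S100A6 lowest in the last group of each library, while NGB runs level, at 2907 CPM in the last group of Control and 133 CPM in that of Drug_Radiation.

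The metallothionein-high cells only partly coincided with cells chosen in the same way by other lists, where 10% would be shared by classes unrelated to each other. With the top 10% by extracellular matrix genes they shared 28.6%, 33.9%, 29.5% and 31.5% of their cells, with that by integrated stress genes 19.8%, 23.6%, 24.2% and 22.7%, and with that by hypoxia and glycolysis 16.4%, 20.7%, 16.8% and 16.6%. The overlap with NRF2 targets was 5.97%, 1.65%, 9.21% and 6.58%, and that with G2 and mitosis 10.7%, 8.68%, 9.74% and 9.44%. With p53 targets it was 10.1%, 6.20%, 9.47% and 5.87%, and with cytokines and NF-κB targets 12.9%, 9.92%, 19.5% and 15.9%. Exact 95% intervals, which cover counting error only, lay above 10% for the matrix, stress and hypoxia classes in every library. Of the metallothionein-high cells 61.6%, 55.4%, 60.3% and 59.8% were in neither the hypoxia nor the matrix class. Among cells outside both classes LOX had a mean log2 ratio of 1.68 ± 0.41, VEGFA 1.30 ± 0.46 and KRT8 -1.11 ± 0.09 (SD, n = 4 libraries), though such cells were chosen partly by LOX and VEGFA, which are in the hypoxia list.

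**Figure D5:**
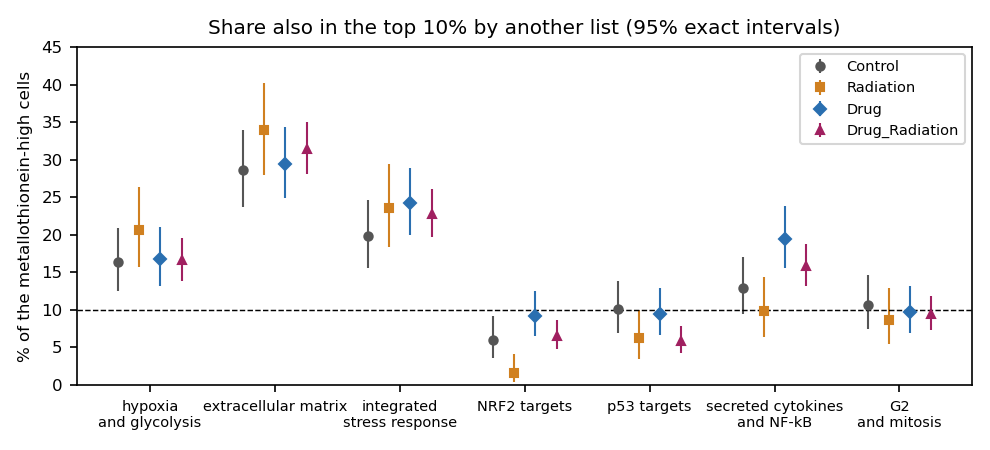
Percent of the metallothionein-high cells that are also in the top 10% of their library by the summed UMIs of another list, with 1 symbol per library and exact 95% intervals; the dashed line marks 10%. The matrix class shares 28.6% to 33.9%, and NRF2 targets 1.65% to 9.21%.

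The size of the differences varied between libraries. Over the 64 higher genes the median folds were 2.18, 2.12, 1.79 and 1.69, and 43 of the 64 had their smallest ratio in Drug_Radiation. The 28 lower genes had median folds of 2.04, 1.97, 1.96 and 1.75. Treatment, depth and number of cells all differ between the libraries, and their parts in these sizes cannot be told apart. The metallothionein level itself differed between libraries: at Control's limit of 0.501%, 9.99%, 16.2%, 8.02% and 12.6% of cells would be included. After each cell was thinned to 1000 UMIs, with at least 5 of the 4 genes, the shares were 12.3%, 19.8%, 11.6% and 17.6%. These shares use the ranking genes and have no replicate, so they are given as a description of the 4 libraries only.

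Extreme ratios in a single library rested on few cells. MMP1, interstitial collagenase, was at 121 CPM in the metallothionein-high cells of Control against 0.251 CPM in the others, but 70 of its 116 UMIs came from 1 cell and the rest from 3 further cells, and Radiation had 0 UMIs there. All 20 UMIs of GRM3, a glutamate receptor gene, in the metallothionein-high cells of Control came from 1 cell. COL1A1, the chain of type I collagen, had its largest ratio in Radiation, at 31.6 against 6.65 CPM, from 21 cells, and was higher in the other 3 libraries too, with log2 ratios between 0.78 and 1.49.

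Defining immune and endothelial markers were at or near 0, while the fibroblast markers FAP and LUM were not. The other fibroblast markers were low: DCN did not pass 3.39 CPM, PDGFRA 1.38 CPM and PDGFRB 5.89 CPM. Of 11 immune markers, the summed level was 29.1, 50.03, 54.7 and 46.8 CPM in the metallothionein-high cells against 16.8, 41.7, 39.7 and 40.1 CPM, most of it from CD68, a lysosomal gene, and in Control also from CSF1R at 9.37 CPM, while CD3D, MS4A1, NKG7 and LYZ did not pass 0.212 CPM. The 9 fibroblast and endothelial markers summed to 57.3, 60.3, 78.1 and 66.9 CPM against 31.0, 35.3, 49.3 and 46.3 CPM. That difference came mostly from FAP, a surface protease of activated fibroblasts, at 22.9, 28.7, 29.01 and 32.3 CPM against 8.79, 11.7, 16.3 and 17.2 CPM, and from LUM, while VWF and CDH5 did not pass 0.816 CPM and PECAM1 did not pass 2.08 CPM. The part of FAP- or LUM-expressing cells in the matrix values above was not tested.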

How the data were processed

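The authors deposited UMI counts for each gene in each barcode, and these whole numbers were used as they are. Per the labels, a PIPseq V T2 3′ kit was used, while another label text names 10x Genomics, so the platform is not settled. The submitters' processing notes list hg38 and Seurat 4.3.3 without saying what each did; aligner, counting program, strand and calling of barcodes: not given in the sources used here. No doublet caller was run.

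The members and the gene lists were chosen with earlier results of these data known. Cells (318, 242, 380 and 699 of those kept) were taken as the top 10%, rounded down, with ties by file order. Their UMIs were summed, likewise those of the other cells, and both sums were scaled to CPM without the mitochondrial and the 4 ranking genes. Ratios are log2 of CPM + 1. Genes were counted at 1.5-fold with at least 20 CPM in members or others of every library; lists used 5 CPM and at least 5 measured genes. Of 32 lists, those of other metallothioneins, immune cell markers, fibroblast and endothelial markers and replication histones had fewer than 5 measured genes, and mitochondrially encoded genes lie outside the CPM total. Cells held 1009 to 17942 UMIs (Control), 1592 to 28237 (Radiation), 6427 to 132597 (Drug) and 6244 to 141848 (Drug_Radiation). No p-value was computed. Intervals are exact (95%) and cover counting error only.

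Named genes were the 15 highest and 15 lowest by smallest absolute ratio among genes of 1 sign in all 4 libraries, the 3 highest and 3 lowest of each library, up to 4 examples per list, and a fixed set of metal, stress and treatment genes. PLOD2, COL5A1, ENO2, ERO1A, CAV1, CAV2, ANXA1 and ACAT2 were named after their values were seen. A few genes that the rule names are not reported here. Sequences and windows are RefSeq's (GRCh38.p14), and gene positions GENCODE 29. Alternatives changed the ranking, the size of the class, the cell filter, the scaling (TMM by edgeR 4.0.16, size factors by DESeq2 1.42.0), the filter on low counts and the fold. The steps from summed counts to ratios and calls were run on simulated counts with known folds and fixed members. Choice of cells by score and variation between cells were not simulated, so that run does not test them. Python 3.11.15, numpy 2.4.6, scipy 1.17.1, pandas 2.3.3 and R 4.3.3 were used.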

Additional observations from a re-analysis of the deposited data

Results flagged for a closer look

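In a few results the metallothionein-high cells of both libraries on one side of a treatment lay on one side of their other cells, and those of both libraries on the other side lay opposite. With 1 library per group these differences were not tested, and log2 ratios are given in the order Control, Radiation, Drug, Drug_Radiation. Among many genes such sign patterns are met often, and most ratios here are small.

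By radiation, the mean ratio of CALB2, a mesothelial calcium-binding protein, differed by 0.54 between irradiated and unirradiated libraries (-0.43, 0.39, -0.17, 0.09). That of SCD, a fatty acid desaturase, differed by 0.25 (-0.05, 0.38, -0.03, 0.05) and that of GADD45B, a stress gene, by 0.23 (-0.10, 0.01, -0.22, 0.12). For CDKN1A the difference was -0.33 (0.13, -0.30, 0.03, -0.20), and for WARS1, a tRNA synthetase, -0.38 (0.17, -0.40, 0.12, -0.06).

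By QTP, the noncoding RNAs FTX and NEAT1 differed by -0.52 (0.30, 0.44, -0.09, -0.21) and -0.47 (0.11, 0.40, -0.18, -0.24), and NBR1, an autophagy receptor, by -0.11 (0.02, 0.15, -0.04, -0.0032). The median of the cytosolic ribosomal protein list, relative to all genes, differed by 0.11 (-0.03, -0.01, 0.09, 0.09). Depth differed with QTP, and its part in these values was not tested.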

How the results depend on the processing

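The counts of 64 higher and 28 lower genes stayed within 1.5 times under each other ranking, class size, cell filter and scaling tried. They moved with the size of the filter: 36 genes were higher at 50 CPM or more and 119 at 5 CPM or more, while 12 were higher and 3 lower at 2-fold. The cause lies in the construction, since these change which genes are counted. All 64 higher genes stayed above 0 and all 28 lower genes below 0 in all 4 libraries under the alternatives of ranking, size, filter and scaling, except 1 higher gene when cells were ranked on a random part of the UMIs (63). These genes were called on mostly the same cells and UMIs, so a kept sign is largely built in. Fewer stayed 1.5-fold: 42 of the 64 and 19 of the 28 with a score without MT2A, and 42 and 18 at the top 20% of cells. With under 10% mitochondrial UMIs and at least 500 genes, 64 and 26 did. Without the 5% of cells with most UMIs, a setting chosen after seeing the data, 59 were higher and 27 lower. Of 2664 other values for single genes 160 moved by more than their spread, and of 528 for lists 46; none changed sign while called. No paired test was run, since the same contrast chose the cells. Each ratio is already taken within 1 library. In Control, a median of 18.5 UMIs of the 4 genes per metallothionein-high cell limits how exactly the cells are chosen.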

Other observations

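Of 14 measured MHC class I genes 7 exceeded the all-gene median in all 4 libraries and 4 stayed under it, against 21.7% and 22.6% of all genes, and 0 were called at 1.5-fold. HLA-B was at 2906, 4247, 3229 and 3706 CPM against 1913, 2889, 2254 and 2648 CPM in Control, Radiation, Drug and Drug_Radiation, while PSMB8 and PSMB9, immunoproteasome subunits, had mean log2 ratios of -0.31 ± 0.17 and -0.30 ± 0.21 (SD, n = 4 libraries). Of 25 measured lysosome genes 20 exceeded the all-gene median in all 4 libraries and 3 below. PSAP, the saposin precursor, was at 890, 1440, 1108 and 1221 CPM against 460, 937, 768 and 889 CPM. The ferritin genes FTH1 and FTL had mean log2 ratios of 0.40 ± 0.12 and 0.26 ± 0.08.

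Within the mitosis list 2 genes that work on the same ubiquitin ligase went opposite ways in every library. Both were named for lying at the ends of the 16 list genes with at least 20 CPM, so opposite signs were likely. UBE2C, a ubiquitin-conjugating enzyme of the anaphase-promoting complex, was at 238, 149, 177 and 139 CPM against 153, 108, 135 and 97.6 CPM. CDC20, an activator of that complex, was at 46.8, 35.3, 42.8 and 27.9 CPM against 57.4, 54.99, 67.8 and 39.3 CPM. The mean log2 ratios were 0.50 ± 0.10 and -0.51 ± 0.17.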
